A study of Mus musculus with 36 samples.

Results

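A set of 9 immediate-early genes was followed through a time-course of interleukin-1β (IL-1β) in mouse chondrocytes: Egr1, Egr2 and Egr3 of the EGR family, Nr4a1, Nr4a2 and Nr4a3 of the NR4A family, and Ier2, Ier3 and Ier5, which share the name immediate early response. These 9 genes were picked by symbol from the 53421 genes of the series, and all 9 were present in the count table and the TPM table and passed the filter on low counts. The cells were a wild-type mouse line of fibroblast-like chondrocytes, conditionally immortalised and moved out of the immortalising conditions (interferon-γ and the permissive temperature) before use. One group, NT, was transfected with a non-targeting siRNA pool, and the other, IFT88siRNA, with a siRNA pool against Ift88, which encodes a subunit of the intraflagellar transport machinery that builds the primary cilium. Cells of each group stayed in medium only (0 h) or received IL-1β at 10 ng/ml and were taken after 1, 2, 4, 8 or 24 h, which gave 12 conditions of 3 poly(A) RNA libraries (36 libraries). All IL-1β comparisons use the 0 h libraries of the same siRNA as reference, and untreated cells of later times were not analysed here, so time in culture and IL-1β cannot be told apart at the late points. The labels do not say whether the 3 libraries of a condition came from separate cultures, so p-values measure the spread between these libraries, which may be technical.

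Immediate-early genes are transcribed within minutes of a stimulus from factors that are already in the cell, without the need for new protein synthesis. IL-1β binds its receptor and activates MAP kinases and NF-κB, and MAP kinases act in turn on the serum response factor with its ternary complex partners and on CREB-type factors. The EGR genes encode zinc-finger transcription factors that bind GC-rich DNA and are held in check by the NAB co-repressors. The NR4A genes encode orphan nuclear receptors, also known as Nur77 (Nr4a1), Nurr1 (Nr4a2) and Nor1 (Nr4a3), whose activity follows mainly from how much of them is made. Ier2 and Ier5 encode related nuclear proteins, whereas Ier3 (also known as IEX-1) is a survival gene and a target of NF-κB. The genes are used as sensors of recent signalling in many tissues, and EGR1 and the NR4A receptors have been studied in cartilage under inflammatory cytokines.

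The libraries held from 19337022 to 38304127 counts on genes, with a median of 21672803.5 in NT and 25873754 in IFT88siRNA, and such counts carry sampling error that is small for all but the lowest members. Ift88 itself was at 5.83 to 10.2 CPM (counts scaled to library size, with TMM) in the NT libraries and at 1.43 to 3.10 CPM in the IFT88siRNA libraries, which put it at 22.9 to 36.1% of NT over the 6 times, called at each. At 8 h the IFT88siRNA libraries had 34, 46 and 87 counts of Ift88 in replicates 1, 2 and 3. Of the 10 chondrocyte and fibroblast markers, Col1a2 (414 to 1006 TPM), Col3a1 (70.3 to 431 TPM) and Prrx1 (34.2 to 129 TPM) were high, and Sox9 (5.98 to 34.6 TPM), Comp (4.18 to 22.0 TPM) and Col2a1 (1.43 to 9.05 TPM) were present. Acan and Matn3, which define mature cartilage, did not exceed 0.206 and 0.452 TPM in any library. The 10 markers of leukocytes, endothelium and epithelium summed to between 7.69 and 15.8 TPM. Of these, Cd68 gave 4.32 to 12.3 TPM and Lyz2, a macrophage marker, 0.686 to 4.38 TPM (14 to 74 counts). Ptprc, Adgre1, Cd3e, Cdh5 and Epcam were at 0 TPM in some libraries and at 0.391 TPM or less in all.

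All 9 members stood higher after 1 h of IL-1β than in medium only in NT cells, and 1 h was the highest of the 6 times for each of them in 3 of 3 replicates of either siRNA group. No earlier time with IL-1β was taken, so a maximum before 1 h would not be seen. Peak below means the highest of these 6 times. A gene is called changed here when edgeR's quasi-likelihood test gives a Benjamini-Hochberg adjusted p under 0.05 over all genes tested and the fold change is over 1.5. By that rule 9 of 9 members rose at 1 h, against 9.22% of all 16048 genes tested. Errors of a log2 fold change are standard errors (SE), and errors of a level are SD over 3 libraries.

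Among the nuclear receptors, Nr4a1 stood at 15.9, 17.2 and 15.1 CPM in the 3 NT libraries at 0 h and at 1916, 1925 and 1823 CPM at 1 h. The libraries within a time lay close together and the times were far apart. This was a rise of 6.87 ± 0.05 on the log2 scale, or 117-fold (edgeR, adjusted p = 2.9e-30), the largest among the 9 members. Nr4a3 rose from 3.97, 3.46 and 3.15 CPM to 71.1, 63.7 and 73.5 CPM (log2 fold change 4.29 ± 0.09, 19.6-fold). Nr4a2 rose from 9.13, 8.54 and 8.25 CPM to 81.0, 77.6 and 78.8 CPM (log2 fold change 3.19 ± 0.07, 9.14-fold). For none of the 3 receptors did the libraries of 0 h and 1 h overlap, and the fold of Nr4a1 stood far above those of the other two.

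Among the EGR factors, Egr3 went from 14.6, 16.5 and 14.9 CPM at 0 h to 923.6, 844.9 and 937.1 CPM at 1 h, a rise of 5.88 ± 0.07 on the log2 scale (58.8-fold). Egr2 rose from 8.92, 9.57 and 8.78 CPM to 258.8, 269.4 and 260.4 CPM (log2 fold change 4.85 ± 0.08, 28.9-fold). Egr1 stood at 300.4, 303.6 and 298.0 CPM and reached 1865, 2047 and 1791 CPM (log2 fold change 2.66 ± 0.08, 6.31-fold). The fold change of Egr1 was the smallest of the EGR genes, and over the 9 members Ier5 alone changed by a smaller factor.

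The IER genes rose as well. Ier3 went from 18.1, 18.5 and 18.3 CPM to 256.1, 273.1 and 255.3 CPM (log2 fold change 3.83 ± 0.05, 14.3-fold), Ier2 by 3.05 ± 0.08 on the log2 scale (8.28-fold) to 589 ± 32.9 CPM, and Ier5 by 2.62 ± 0.06 (6.16-fold) to 349.5 ± 20.9 CPM. Their 3 libraries at 1 h lay above their 3 libraries at 0 h in each case.

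**Figure D1:**
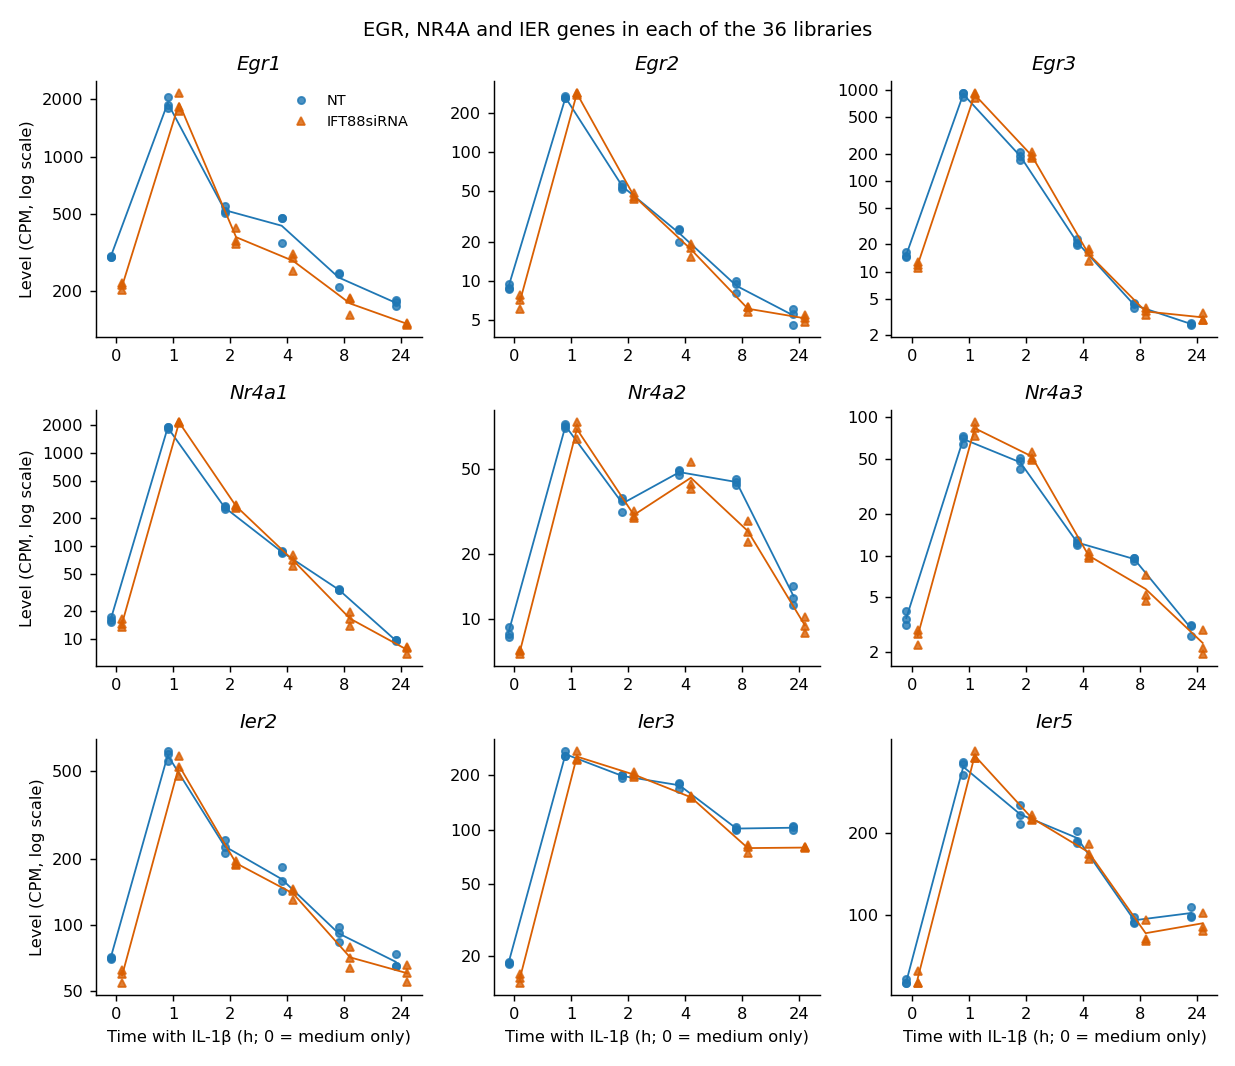
CPM of each member in each of the 36 libraries (y axis, log scale, TMM scaling) against time with IL-1β (x axis, h, evenly spaced, 0 is medium only). Blue circles are NT and orange triangles IFT88siRNA, with lines through the means of 3 libraries. All 9 panels peak at 1 h, from 69.4 CPM for Nr4a3 to 1901 CPM for Egr1 in NT, and Nr4a2 is the panel with another rise at 4 h.

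The members that rose together were looked up in the RefSeq promoter windows, which run from 250 bases before to 50 bases after each annotated transcription start (GRCm38.p6). Of the 9 members, 6 had at least 1 window: Egr2 (with 5 starts), Nr4a1, Nr4a2, Nr4a3, Ier3 and Ier5. For 5 of them, the stretch before the start that lies outside every GENCODE exon is printed 5′ to 3′ on the strand of the gene. These stretches hold matches to motifs of signal-regulated factors. Capitals mark matches, on either strand, to TGACG (the core of the cyclic AMP response element, which CREB and ATF proteins bind), to the CArG box (bound by serum response factor) and to the κB site (bound by NF-κB).
Nr4a1 (chr15:101266596-101266845, plus strand): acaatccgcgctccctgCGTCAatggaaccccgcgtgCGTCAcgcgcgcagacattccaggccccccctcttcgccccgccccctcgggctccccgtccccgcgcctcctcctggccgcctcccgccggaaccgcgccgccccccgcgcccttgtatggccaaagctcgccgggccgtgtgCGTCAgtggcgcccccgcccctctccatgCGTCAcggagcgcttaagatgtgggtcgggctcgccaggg
Nr4a2 (chr2:57124004-57124253, minus strand): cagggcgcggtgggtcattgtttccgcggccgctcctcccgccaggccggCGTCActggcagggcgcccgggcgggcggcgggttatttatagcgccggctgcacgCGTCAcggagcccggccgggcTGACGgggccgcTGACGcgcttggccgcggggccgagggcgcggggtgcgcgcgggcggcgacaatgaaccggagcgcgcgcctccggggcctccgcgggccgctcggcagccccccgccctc
Nr4a3 (chr4:48045055-48045152, plus strand): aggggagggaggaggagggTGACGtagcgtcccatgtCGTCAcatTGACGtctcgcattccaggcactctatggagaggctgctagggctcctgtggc
Egr2 (chr10:67537619-67537868, plus strand): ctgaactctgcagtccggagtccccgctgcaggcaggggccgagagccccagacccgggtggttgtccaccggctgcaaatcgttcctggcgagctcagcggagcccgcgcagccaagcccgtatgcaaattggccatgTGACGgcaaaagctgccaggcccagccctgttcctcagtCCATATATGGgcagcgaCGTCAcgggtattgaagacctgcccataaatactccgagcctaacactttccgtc
Ier3 (chr17:35821463-35821683, plus strand): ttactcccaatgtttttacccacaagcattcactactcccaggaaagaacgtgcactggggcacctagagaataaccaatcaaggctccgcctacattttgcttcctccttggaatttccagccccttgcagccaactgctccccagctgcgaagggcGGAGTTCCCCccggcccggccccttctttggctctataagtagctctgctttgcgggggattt

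The sequences of the receptors are alike in 1 feature. Each of the Nr4a1, Nr4a2 and Nr4a3 windows held 4 matches to TGACG counting both strands, and for Nr4a1 all 4 read CGTCA on the coding strand. The stretch of Nr4a3 ends 153 bases before its RefSeq start, where a GENCODE exon begins, and shows 3 of its 4 matches. Ier5 held no match to any of the 5 motifs searched and is not shown. Of all 32851 windows, 76 (0.231%) held 4 or more, a limit that was set from these 3 genes after their matches were seen. At least 1 match to TGACG was present in 4 of the 6 members with windows (the receptors and Egr2). Over all 27025 genes with windows it was present in 23.0%. The full palindrome TGACGTCA, which contains TGACG on both strands, was in none of the 6 and in 2.03% of those genes. A CArG box was found in Egr2 (1.81% of those genes), 72 bases before the start for the window shown, between a TGACG and a CGTCA. A κB site was found in Ier3 and, across the start and so not shown, in Nr4a1 (5.14% of those genes). The EGR recognition sequence GCGNGGGCG was found in Nr4a1 and Nr4a2 (6.27% of those genes) and is left in lower case. These are matches of letters in short windows, and no binding was measured in these cells.

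Per length of transcript, the order of the 9 genes changed with IL-1β. In NT cells at 0 h the mean levels were 183 ± 2.30 TPM for Egr1, 103 ± 1.29 TPM for Ier2, 40.3 ± 0.65 TPM for Ier5, 34.2 ± 0.66 TPM for Ier3, 12.2 ± 0.76 TPM for Nr4a1, 9.15 ± 0.83 TPM for Egr3, 7.42 ± 2.09 TPM for Nr4a2, 6.18 ± 0.45 TPM for Egr2 and 1.27 ± 0.14 TPM for Nr4a3 (SD, n = 3). Nr4a2 (5.43 to 9.59 TPM) overlapped Egr3 above it and Egr2 below it, and the libraries of the other neighbours were apart. At 1 h the order was led by Nr4a1 at 1249 ± 32.8 TPM, followed by Egr1 at 1003 ± 80.7 TPM, Ier2 at 711 ± 40.7 TPM, Egr3 at 471 ± 24.96 TPM and Ier3 at 427 ± 20.6 TPM, where the last pair overlapped. Ier5 (215 ± 10.1 TPM), Egr2 (148 ± 5.98 TPM), Nr4a2 (61.7 ± 9.65 TPM) and Nr4a3 (23.7 ± 1.91 TPM) followed. The 9 genes together went from 396.7 ± 4.79 TPM, which is 0.0397% of all transcripts, to 4310 ± 165 TPM, or 0.431%.

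Within families the make-up shifted. Egr1 gave 92.3% of the EGR transcripts at 0 h and 61.8% at 1 h in NT, when Egr3 gave 29.1% and Egr2 9.11%, and Egr1 was back at 90.4% by 4 h. Nr4a1 gave 58.9% of the NR4A transcripts at 0 h, 93.6% at 1 h and 38.03% at 8 h, when Nr4a2 gave 56.1%. Ier3 rose from 19.3% of the IER transcripts at 0 h to 53.0% at 24 h while Ier2 went from 58.0% to 26.9%. At 2 h Egr3 gave 31.1% of the EGR transcripts in IFT88siRNA and 24.6% in NT, and at 8 h Nr4a2 gave 54.3% of the NR4A transcripts in IFT88siRNA; shares were not tested.

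**Figure D2:**
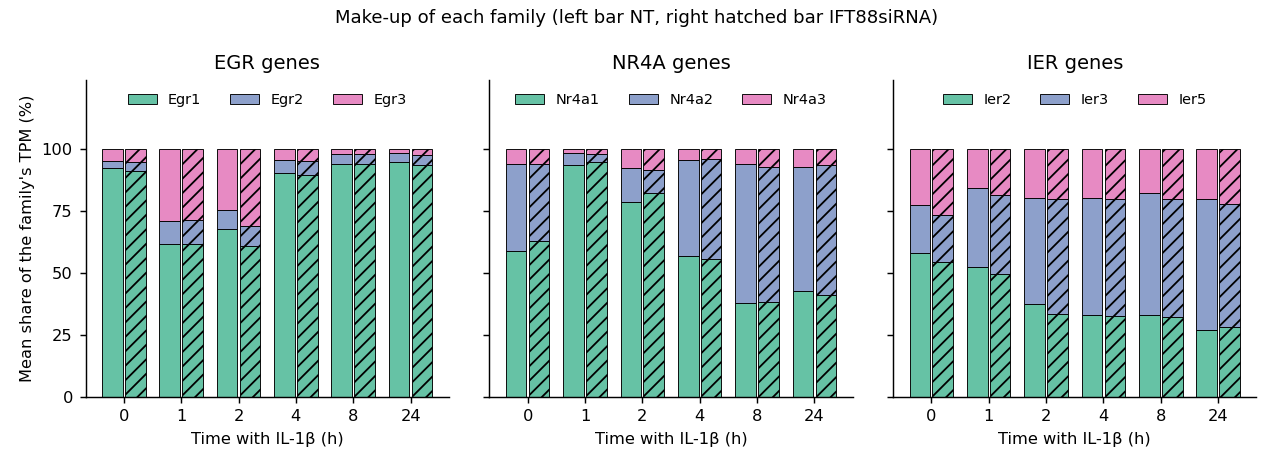
Mean share of each gene in the summed TPM of its family (y axis, %, 3 libraries) against time with IL-1β (x axis, h), left bars NT and right hatched bars IFT88siRNA. Egr3 takes 29.1% of the EGR bar at 1 h in NT, Nr4a1 takes 93.6% of the NR4A bar at 1 h and Nr4a2 56.1% at 8 h, and the Ier3 share grows to 53.0% at 24 h.

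The return from the peak differed from member to member in NT cells. Between 1 h and 2 h 6 of 9 members fell (5.80% of all genes tested), namely the EGR genes, Nr4a1, Nr4a2 and Ier2. Nr4a1 fell by 2.87 ± 0.04 on the log2 scale to 13.7% of its level at 1 h, whereas Ier3 (log2 fold change -0.40 ± 0.04), Nr4a3 (-0.56 ± 0.07) and Ier5 (-0.58 ± 0.05) stayed within 1.5-fold although their adjusted p was at most 1.8e-07. Nr4a3 passed the fold without replicate 2 of NT at 1 h or 2 h (-0.63 and -0.62), and Ier5 without replicate 3 at 1 h or replicate 2 at 2 h (-0.63 and -0.65). At 2 h 9 of 9 members were still above 0 h (13.0% of all genes).

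Between 2 h and 4 h 4 of 9 members fell (10.5% of all genes), with Egr3 falling by 3.15 ± 0.07 on the log2 scale to 11.3% of its level at 2 h and Nr4a3 by 1.91 ± 0.08. Nr4a2 went the other way: it stood at 36.6, 31.5 and 35.3 CPM at 2 h, at 46.6, 48.6 and 49.4 CPM at 4 h and at 44.8, 43.3 and 42.0 CPM at 8 h. All libraries of 4 h and 8 h thus lay above all libraries of 2 h. The difference of 4 h against 2 h was 0.50 ± 0.06 on the log2 scale (adjusted p = 1.6e-07), 1.41-fold, and so short of the fold needed for a call. Ier2 was at -0.48 ± 0.07 for this step and passed at -0.61 without replicate 3 of NT at 4 h. At 4 h 7 of 9 members stood above 0 h (16.3% of all genes), and Egr1 (log2 fold change 0.54 ± 0.08) and Egr3 (0.46 ± 0.08) were under 1.5-fold. Without replicate 2 of NT at 4 h, which has the lowest Egr1, the value for Egr1 was 0.66 and passed.

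Between 4 h and 8 h 7 of 9 members fell (9.93% of all genes), all except Nr4a2 and Nr4a3, and between 8 h and 24 h 5 of 9 fell (10.2% of all genes): Egr2, Egr3 and the 3 receptors. At 8 h 5 of 9 members were above 0 h (11.8% of all genes), namely the receptors, Ier3 and Ier5, and 1 of 9, Egr3, was below (7.87% of all genes). Nr4a2 was then still 5.03-fold above 0 h (log2 fold change 2.33 ± 0.07), at 54.8% of its peak, while Nr4a1 was at 1.79% of its peak.

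At 24 h the 9 genes had parted. Ier3 at 104.6, 103.9 and 99.4 CPM was 5.60-fold above 0 h (log2 fold change 2.49 ± 0.05) and level with its value at 8 h (100.4, 100.1 and 104.1 CPM), and Ier5 was 1.79-fold above. These were the 2 of 9 members called higher (6.61% of all genes). Called lower were 4 of 9 (9.71% of all genes). Egr3 at 2.58, 2.64 and 2.71 CPM was at 17.3% of its level in medium only (log2 fold change -2.53 ± 0.11), and its libraries at 24 h and at 0 h were far apart. Egr1 stood at 57.5%, Nr4a1 at 59.3% and Egr2 at 59.8% of 0 h. Nr4a2 (log2 fold change 0.56 ± 0.08), Nr4a3 (-0.25 ± 0.14) and Ier2 (-0.06 ± 0.08) were not called, and Nr4a2 passed at 0.61 and 0.63 without replicate 1 of NT at 0 h or replicate 3 of NT at 24 h.

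**Figure D3:**
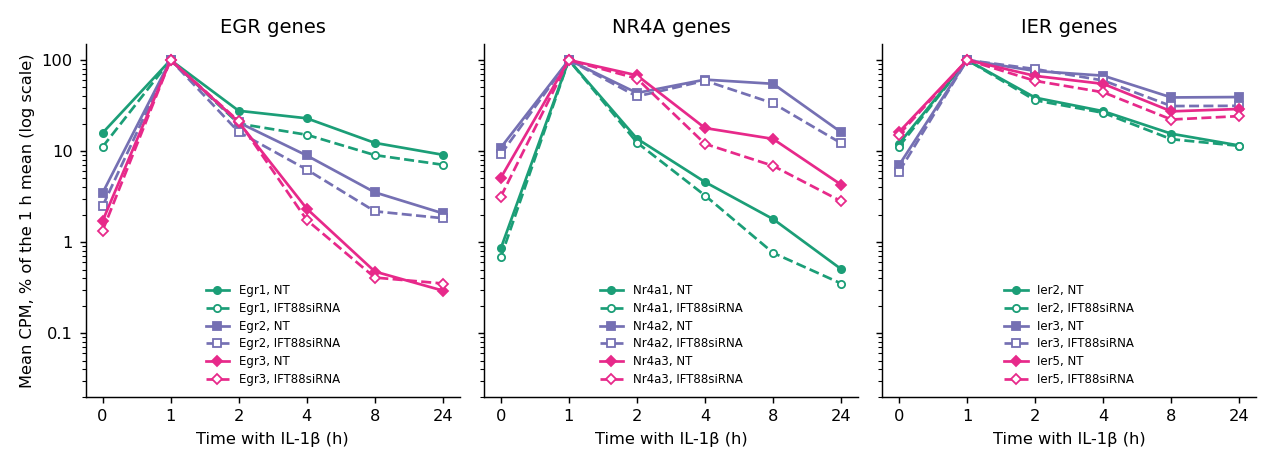
Mean CPM as a percentage of the mean at 1 h (y axis, log scale) against time with IL-1β (x axis, h), 1 panel per family, solid lines NT and dashed lines IFT88siRNA. Egr3 and Nr4a1 drop furthest, to 0.293% and 0.505% of the peak at 24 h in NT, Nr4a2 is at 60.9% at 4 h and 54.8% at 8 h, and Ier3 levels off at 39.2%.

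In IFT88siRNA cells the 9 members also peaked at 1 h. Called higher were 9 of 9 members at 1 h (6.82% of all 16129 genes tested), 9 of 9 at 2 h (12.4%), 7 of 9 at 4 h (16.0%), 3 of 9 at 8 h (10.5%) and 2 of 9 at 24 h (6.36%). Called lower were Egr3 at 8 h (7.11% of all genes) and Egr1, Egr3 and Nr4a1 at 24 h (7.87%). At 1 h Nr4a1 rose from 14.5, 16.2 and 13.2 CPM to 2184, 2174 and 2098 CPM (log2 fold change 7.20 ± 0.11, 147-fold), Egr3 by 6.23 ± 0.09 and Egr2 by 5.33 ± 0.08 on the log2 scale. At 8 h Nr4a1, at 19.1, 13.6 and 16.4 CPM, overlapped its 0 h libraries (log2 fold change 0.15 ± 0.11, adjusted p = 0.25), and Ier5 was at 0.55 ± 0.07, short of the fold. Ier5 passed without replicate 2 of IFT88siRNA at 0 h (0.60) and without replicate 2 (0.60) or 3 (0.59) at 8 h. Nr4a2 again went from 29.3, 30.1 and 31.9 CPM at 2 h to 53.6, 42.4 and 40.2 CPM at 4 h, with no overlap; this step was not tested.

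Set against NT at the same time, the IFT88siRNA cells gave lower values for most members. Both limits were passed by 5 comparisons, 1 of 9 members at 4 h and 4 of 9 at 8 h (0.432% and 0.692% of all genes). No member passed at 0, 1, 2 or 24 h, where 0.496 to 2.66% of all genes did. Of the 54 comparisons of a member at a time, 44 had a negative log2 fold change, against 50.2% of the 89988 comparisons over all genes. Of the 27 with an adjusted p under 0.05, 25 were negative, and over all genes 54.4% of such comparisons were. In bulk RNA, fewer cells that express a gene and less RNA per cell cannot be told apart.

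In medium only, no member passed both limits, against 2.23% of all 15274 genes tested, while 7 of 9 had an adjusted p under 0.05 at a smaller fold (19.5% of all genes), all lower (7 of 9 also at an unadjusted p under 0.05, against 32.1% of all genes, and 0 calls by DESeq2 as by edgeR, here and at 1, 2 and 24 h). For 7 of 9 the 3 IFT88siRNA libraries lay below the 3 NT libraries, which over all genes happened in either direction for 33.5%. Egr1 stood at 219.4, 201.0 and 213.4 CPM against 300.4, 303.6 and 298.0 CPM in NT, with no overlap, at 70.2% of NT (log2 fold change -0.51 ± 0.04, edgeR adjusted p = 1.0e-08). The others of the 7 lay between -0.43 ± 0.15 for Nr4a3 and -0.27 ± 0.05 for Ier2. Nr4a1 (-0.14 ± 0.08, adjusted p = 0.24) and Ier5 (0.04 ± 0.05, adjusted p = 0.64) did not pass. The chondrocyte and fibroblast markers differed at 0 h too, with 4 of the 8 tested called: Sox9 (log2 fold change 0.61 ± 0.06), Comp (0.60 ± 0.08) and Col3a1 (0.71 ± 0.04) were higher in IFT88siRNA, and Col2a1 was lower (-0.77 ± 0.08). Their summed level, 1278 to 1348 TPM in IFT88siRNA and 1162 to 1234 TPM in NT, did not overlap, and its part in the members' values was not tested. Of the 2 markers of other cell types tested at 0 h, 1 was called, higher in IFT88siRNA. Lyz2 stood at 1.35 ± 0.33 CPM in NT and 2.11 ± 0.36 CPM in IFT88siRNA, and Cd68 at 6.37 ± 0.49 and 5.19 ± 0.09 CPM. Their part was not tested either.

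At 1 h, when the members peaked, no member was called (2.66% of all genes) and 2 of 9 had an adjusted p under 0.05 (19.0% of all genes), both higher in IFT88siRNA. These were Nr4a1, at 2184, 2174 and 2098 CPM against 1916, 1925 and 1823 CPM (log2 fold change 0.18 ± 0.04, adjusted p = 0.0023), and Nr4a3 (0.25 ± 0.07, adjusted p = 0.018), of which Nr4a3 just overlapped. Egr1, which was lower before IL-1β, stood at 1736, 2155 and 1804 CPM against 1865, 2047 and 1791 CPM (log2 fold change -0.01 ± 0.06). The groups did not overlap for 3 of 9 members (33.9% of all genes), Egr2, Nr4a1 and Ier5, each higher. At an unadjusted p under 0.05 there were 5 of 9 (32.4% of all genes).

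At 2 h no member was called (0.496% of all genes). Egr1 (log2 fold change -0.47 ± 0.07, adjusted p = 0.0059) and Ier2 (-0.26 ± 0.06, adjusted p = 0.032) were the 2 of 9 with an adjusted p under 0.05 (2.76% of all genes), 4 of 9 had an unadjusted p under 0.05 (17.2% of all genes), and 3 of 9 did not overlap (20.8% of all genes). At 4 h 1 of 9, Egr1, was called (0.432% of all genes). Its libraries read 252.0, 295.1 and 310.6 CPM in IFT88siRNA and 476.1, 355.4 and 476.5 CPM in NT, at 65.3% of NT (log2 fold change -0.61 ± 0.09, adjusted p = 0.0010). The groups did not overlap, with replicate 2 of NT closest to IFT88siRNA, and without replicate 1 or replicate 3 of NT or replicate 1 of IFT88siRNA the value was -0.55, -0.54 and -0.53, under the fold needed. On TPM with limma the value was -0.62 with an adjusted p of 0.15 for log2(TPM + 1), 0.16 for log2(TPM + 0.1) and 0.30 for log2(TPM + 1) with no filter, and was not called. At 4 h 5 of 9 had an adjusted p under 0.05 (3.85% of all genes), all lower, and 7 of 9 did not overlap (20.8% of all genes), all below.

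Most calls between the siRNA groups came at 8 h, the 3 receptors among them. Called lower in IFT88siRNA were 4 of 9 members, against 0.692% of all 15165 genes tested in either direction: Nr4a1, Nr4a2, Nr4a3 and Egr2. With an adjusted p under 0.05 there were 7 of 9 (4.25% of all genes), all lower, and in 8 of 9 the groups did not overlap (23.7% of all genes), all below. Nr4a1 stood at 19.1, 13.6 and 16.4 CPM in IFT88siRNA and at 34.6, 33.2 and 33.4 CPM in NT. Every IFT88siRNA library was far under every NT library, and the level was 47.9% of NT (log2 fold change -1.06 ± 0.10, adjusted p = 0.00023).

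Nr4a2 stood at 28.6, 22.7 and 25.5 CPM against 44.8, 43.3 and 42.0 CPM in NT at 8 h, at 58.3% of NT (log2 fold change -0.78 ± 0.08, adjusted p = 0.00038). This put Nr4a2 at 33.5% of its peak in IFT88siRNA and at 54.8% in NT. Nr4a3 stood at 7.26, 4.71 and 5.21 CPM against 9.63, 9.12 and 9.53 CPM (log2 fold change -0.75 ± 0.14, adjusted p = 0.016). Egr2 stood at 5.82, 6.34 and 6.31 CPM against 9.54, 8.15 and 10.0 CPM (log2 fold change -0.60 ± 0.11, adjusted p = 0.014). No library of these genes crossed between the groups. For the receptors, the highest IFT88siRNA value in CPM was in replicate 1 and the lowest in replicate 2. Scaled to library size, Ift88 was nearly equal in replicates 1 and 2, at 1.53 and 1.59 CPM, and was highest in replicate 3. The part of Ift88 in the receptor values was not tested.

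The calls of Nr4a3 and Egr2 at 8 h were lost in several of the fits that left out 1 library. Nr4a3 kept its size without replicate 1, 2 or 3 of NT or replicate 2 of IFT88siRNA (-0.73, -0.77, -0.73 and -0.63) but had an adjusted p of 0.080, 0.059, 0.087 and 0.064 (edgeR), and Egr2 without replicate 1 or 3 of NT or replicate 1 of IFT88siRNA was at -0.58, -0.53 and -0.56 with an adjusted p of 0.077, 0.092 and 0.043. With no filter beyond 1 count Egr2 was at -0.57, under the fold. Nr4a1 (-1.17 to -0.94) and Nr4a2 (-0.85 to -0.70) stayed called without any one of the 6 libraries. On log2(TPM + 1) with limma, 1 of the 4 members, Nr4a1, was called, and none without the filter. Of the rest, Ier3 (-0.38 ± 0.05), Ier2 (-0.38 ± 0.08) and Egr1 (-0.47 ± 0.08) had an adjusted p under 0.05 at under 1.5-fold, and Egr3 (-0.25 ± 0.14) and Ier5 (-0.18 ± 0.06) did not.

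At 24 h no member was called (1.15% of all genes; 6 of 9 at an unadjusted p under 0.05, against 22.2% of all genes), and 4 of 9 had an adjusted p under 0.05 (8.66% of all genes), all lower: Egr1 (-0.37 ± 0.05), Nr4a1 (-0.35 ± 0.09), Nr4a2 (-0.47 ± 0.09) and Ier3 (-0.37 ± 0.04). The groups did not overlap for 5 of 9 (25.3% of all genes), and Egr3 was the one of these above NT, at 3.52, 2.93 and 2.94 CPM against 2.58, 2.64 and 2.71 CPM. The summed chondrocyte and fibroblast markers ranged from 1188 to 1275 TPM in NT and from 1161 to 1378 TPM in IFT88siRNA at 8 h, and from 674 to 726 TPM and 731 to 804 TPM at 24 h. None of the 8 markers tested was called at 8 h by edgeR (0.692% of all genes). There 4 of 8 had an adjusted p under 0.05 (4.25% of all genes) and 6 of 8 an unadjusted one (21.1% of all genes). At 24 h 2 of 8, Sox9 (0.74 ± 0.07) and Comp (0.87 ± 0.10), were called higher (1.15% of all genes in either direction). The part of the markers in these results was not tested.

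**Figure D4:**
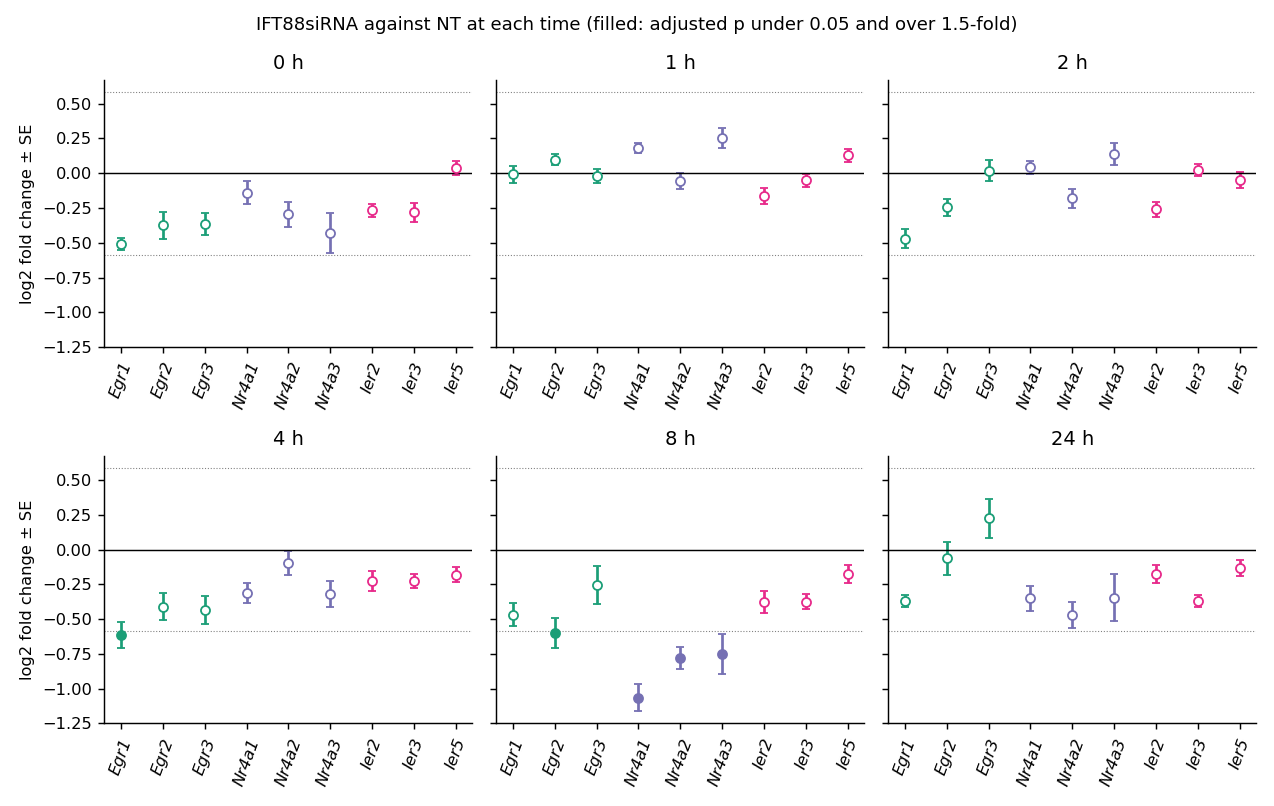
Log2 fold change of IFT88siRNA over NT with its SE (y axis) for each member (x axis) at each time, from edgeR on 3 against 3 libraries. Filled points have an adjusted p under 0.05 and a fold over 1.5, and dotted lines mark 1.5-fold. Filled points are Egr1 at 4 h (-0.61) and Nr4a1 (-1.06), Nr4a2 (-0.78), Nr4a3 (-0.75) and Egr2 (-0.60) at 8 h.

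Whether IL-1β changed a member differently in the 2 siRNA groups was tested as an interaction in all 36 libraries. A positive value means a change from 0 h that is higher in IFT88siRNA, either a larger rise or a smaller fall. These tests share the 0 h libraries with each other and with the comparison of the groups in medium only. Over the 5 times together, 3 of 9 members were called (1.20% of all 16710 genes tested): Nr4a1 (adjusted p = 1.5e-08, largest difference -0.91), Nr4a3 (adjusted p = 0.00013, largest difference 0.69) and Egr3 (adjusted p = 0.015, largest difference 0.59). The difference of Egr3 was at 24 h and was a smaller fall in IFT88siRNA. Egr3 then stood at 26.4% of 0 h in IFT88siRNA and at 17.3% in NT. A further 4 (Nr4a2, Ier3, Egr2 and Egr1) had an adjusted p under 0.05 with every difference under 1.5-fold, which makes 7 of 9 (5.53% of all genes), and Ier2 and Ier5 did not pass. On log2(TPM + 1) Nr4a1 alone was called. The largest difference of Nr4a3 was then -0.44, at 8 h, whereas the 0.69 on counts was at 1 h.

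At single times, 1 of 9 was called at 1 h (0.598% of all genes) and 1 of 9 at 8 h (0.275%). At 1 h this was Nr4a3, with log2 changes from 0 h of 4.98 ± 0.13 in IFT88siRNA and 4.29 ± 0.09 in NT, a difference of 0.69 ± 0.19 (adjusted p = 0.049). With Egr1 and Egr2, 3 of 9 had an adjusted p under 0.05 (2.37% of all genes). On log2(TPM + 1) the difference of Nr4a3 was 0.43 and was not called. The differences of all 9 members at 1 h were positive, from 0.10 ± 0.09 for Ier5 to that value, while IFT88siRNA against NT lay between -0.51 and 0.04 at 0 h and between -0.16 and 0.25 at 1 h. At 8 h it was Nr4a1, at 0.15 ± 0.11 in IFT88siRNA and 1.07 ± 0.05 in NT, a difference of -0.91 ± 0.12 (adjusted p = 3.7e-05). For Nr4a2 it was -0.47 ± 0.14 (adjusted p = 0.14). No member was called at 2 h (0.245% of all genes), 4 h (0.311%) or 24 h (0.132%) by edgeR or DESeq2, with 3, 1 and 2 of 9 at an unadjusted p under 0.05 (11.7%, 11.5% and 7.10% of all genes). The call of Nr4a3 at 1 h was lost without any one replicate number (adjusted p of 0.37, 0.23 and 0.12 without replicate 1, 2 and 3). That of Egr3 over all times was lost too (adjusted p of 0.37 and 0.12 without replicate 1 and 3, and 0.53 on the log2 scale, under the fold, without replicate 2), while Nr4a1 passed at 8 h in each case.

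**Figure D5:**
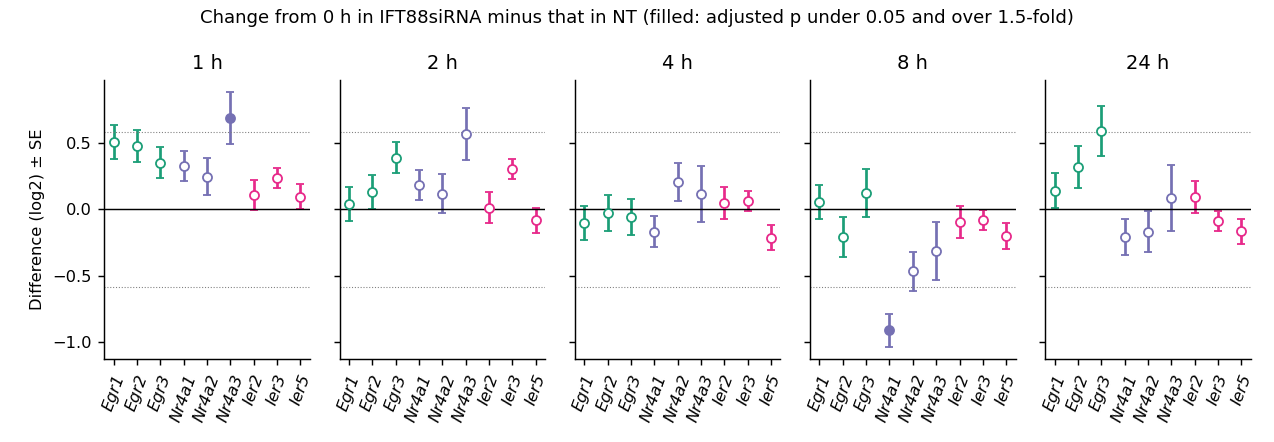
Difference between the siRNA groups in the log2 change from 0 h, IFT88siRNA minus NT, with its SE (y axis) for each member (x axis) at 5 times with IL-1β, from edgeR on 36 libraries. Filled points have an adjusted p under 0.05 and a fold over 1.5, namely Nr4a3 at 1 h (0.69) and Nr4a1 at 8 h (-0.91), and dotted lines mark 1.5-fold.

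Of 7 relatives and partners (Egr4, the NAB co-repressors, the retinoid X receptors that can pair with Nr4a1 and Nr4a2, and Ier5l), 6 passed the filter in NT, all except Rxrg. At 1 h in NT 1 of 6 was called, higher (9.22% of all genes called higher, 18.7% in either direction). This was Egr4, the remaining EGR gene, which went from 0.40 to 0.66 CPM (9 to 16 counts) to 36.8 to 52.4 CPM (log2 fold change 6.31 ± 0.20). Nab2, a co-repressor of the EGR proteins, stood at 90.9 ± 1.38 CPM at 0 h and 129 ± 4.50 CPM at 1 h, under 1.5-fold, and Nab1 changed by 0.41 on the log2 scale. Against NT, Egr4 was called lower in IFT88siRNA at 0 h (log2 fold change -1.64 ± 0.40, from 4 to 6 counts a library) and at 4 h (-0.98 ± 0.25), and no relative or partner was called at the other times. At 24 h Egr4 did not pass the filter.

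Of 22 other early genes, 22 were called higher at 1 h in NT (9.22% of all genes). Fosb, an AP-1 subunit, changed most (log2 fold change 7.66 ± 0.09), then Csrnp1 (4.27 ± 0.07) and Junb (3.99 ± 0.07), beside which the 6.87 of Nr4a1 and 5.88 of Egr3 stand. In the comparisons of the siRNA groups, Atf3 (-1.03 ± 0.07) and Fosl1 (-0.68 ± 0.05) at 0 h, Fos (-0.60 ± 0.10) at 4 h and Fosl1 (-0.59 ± 0.05) at 24 h were called, all lower. None of the 22 was called at 8 h (0.692% of all genes). There 10 of 22 had an adjusted p under 0.05 (4.25% of all genes) and 18 of 22 an unadjusted one (21.1% of all genes). By the interaction test at 1 h, 3 of 22 were called (0.598% of all genes), all with a larger rise in IFT88siRNA. These were Atf3 (1.13 ± 0.15), Arc (0.77 ± 0.14) and Dusp1 (0.76 ± 0.14), and 13 of 22 had an adjusted p under 0.05 (2.37% of all genes). The median difference at 1 h was 0.43 over the 22 genes, 0.33 over the 9 members and -0.002 over all genes. Over all times 4 of 22 were called (1.20% of all genes), namely Atf3, Arc, Dusp1 and Fosl1 (largest difference of Fosl1 0.60). An adjusted p under 0.05 was reached by 16 of 22 (5.53% of all genes). Of 19 upstream factors and kinases, 3 were called at 1 h in NT: Srf, which is also among the 22 early genes (1.79 ± 0.04), Mef2c (0.98 ± 0.13) and Mapk3, which encodes ERK1 (0.61 ± 0.04). All 3 were higher, where 9.22% of all genes were called higher and 18.7% in either direction. None of the 19 was called between the siRNA groups at any of the 6 times, with 4 to 7 at an unadjusted p under 0.05 (17.2 to 32.4% of all genes over the 6 times).

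Over the 12 conditions the Pearson correlations of the members' mean log2 CPM ran from 0.553 (Egr3 and Ier3) to 0.993 (Egr2 and Nr4a1). Their median was 0.909 over the 36 pairs. These are correlations across conditions that share a large rise at 1 h, so they are given as a description. Among the 12077 genes with a mean of at least 50 counts, Fos was most like Egr1 (r = 0.986), Klf6 most like Egr2 (0.993) and Ier2 (0.996), Mcl1 most like Egr3 (0.985), Egr2 most like Nr4a1 (0.993) and Egr4 most like Nr4a3 (0.988). Rnd1 was most like Ier3 (0.990) and Errfi1 most like Ier5 (0.990). For Nr4a2 the closest were Filip1l (0.969), 2810474O19Rik (0.930) and Trpm4 (0.921), so that its best match was below that of any other member.

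The genes lie apart in the mouse genome (GENCODE on GRCm38, the build of the counts). Their exons share no base with those of another gene in this annotation, where counting without strand would not mix them with a neighbour. The paper counted reads on an Ensembl annotation, whose exons were not checked here. Egr1 spans chr18:34859823-34864984. The span of Nr4a1 is chr15:101254269-101274795, that of Nr4a2 chr2:57106830-57124003, and that of Nr4a3 chr4:48045153-48086447. Egr2 spans chr10:67535475-67542188 and Egr3 chr14:70077203-70082614. Ier2 spans chr8:84661331-84662852, Ier3 chr17:35821684-35822923 and Ier5 chr1:155096361-155099636. Nr4a2, Ier2 and Ier5 are on the minus strand and the others on the plus strand.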

How the data were processed

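Poly(A) RNA of 36 libraries was sequenced in pairs. The authors aligned the reads to GRCm38 with HISAT2 2.1.0 and deposited raw whole-number counts for each gene from featureCounts (Subread 1.6.3, default settings, hence without strand). A separate table holds TPM from Salmon 0.9.1, as deposited. Groups came from the sample labels. The 9 genes and the gene lists were chosen with earlier results of these data known.

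Here, counts were filtered (filterByExpr), scaled by TMM and tested with edgeR 4.0.16 in R 4.3.3 (quasi-likelihood F-test, two-sided, Benjamini-Hochberg over all genes of the fit): 6 libraries for the siRNA at a time, the 18 libraries of a siRNA group for IL-1β and for steps between times, and 36 for the difference in response, over 5 times jointly or at each. A call needed an adjusted p under 0.05 and a fold over 1.5 (jointly, at the time of the largest difference). The SE is the absolute log2 fold change over the square root of F. Levels are CPM from a fit of all 36 libraries, or TPM where genes are compared. The deposited TPM were used for levels per length and, as log2(TPM + 1) or log2(TPM + 0.1), in limma 3.58.1 as an alternative. DESeq2 1.42.0, other scalings and filters, a replicate block and leaving out each library were the other alternatives. The tests were checked on simulated counts. Named genes were all members in every comparison, members of the 3 gene lists called between siRNA groups or among the 3 largest IL-1β changes at 1 h in NT, and the genes most correlated with each member over 12 conditions (log2 CPM, prior count 2).

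No library pair of a condition agreed within sampling noise (chi-square per degree of freedom 1.71 to 10.9 over 36 pairs), so each was counted. Counting error only is covered by the depth, as reads carry no molecular identifiers.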

Additional observations from a re-analysis of the deposited data

Results flagged for a closer look

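In 2 siRNA groups given the same IL-1β, 3 members changed differently by the interaction test. Nr4a1 rose less from 0 h in IFT88siRNA than in NT at 8 h (difference in log2 change -0.91 ± 0.12, adjusted p = 3.7e-05), also over the 5 times jointly (largest difference -0.91, adjusted p = 1.5e-08). Nr4a3 rose more at 1 h (0.69 ± 0.19, adjusted p = 0.049), also jointly (0.69, adjusted p = 0.00013). The value of Nr4a3 at 1 h was not called without replicate 1, 2 or 3 (adjusted p of 0.37, 0.23 and 0.12) nor on TPM. On log2(TPM + 1) the joint value of Nr4a3 was -0.44, taken at 8 h and not at 1 h. Egr3 differed jointly (largest difference 0.59, at 24 h, adjusted p = 0.015), which was not called without replicate 1, 2 or 3 nor on log2(TPM + 1). Groups of 3 libraries were not tested for single libraries that stand apart.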

How the results depend on the processing

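The 26 counts of called members and 234 member values were recomputed. DESeq2, DESeq2 size factors in edgeR and 1 model of all 36 libraries changed no call. With the replicate block all 26 counts were equal (103 calls in all, as in the fits without it), and Nr4a1 at 8 h was -1.07 against NT. Over all genes, libraries with the same number did not deviate together (r from -0.13 to 0.22, 2 of 18 pairs over 0.1, 5 of 18 NT libraries closest to their own number). Deviations within 3 libraries cannot settle whether libraries of the same number were handled together, and this was not tested. Without the fold limit the counts were 7, 2, 2, 5, 7 and 4 between the siRNA groups at 0, 1, 2, 4, 8 and 24 h, 7 for IL-1β in IFT88siRNA at 8 h, 9 for 4 h against 2 h, and 7 jointly, 3 at 1 h and 1 at 2 h for the difference in response. In the other comparisons that count rose by at most 1.5 times. With no filter beyond 1 count, 1 (Egr3) was called for the response at 24 h. On log2(TPM + 1), 0 were called between the siRNA groups at 4 h, 1 at 8 h, 3 for 24 h against 8 h, 0 for the response at 1 h and 1 jointly, and without a filter these were 0, 0, 3, 0 and 1. On log2(TPM + 0.1), 1 was called at 0 h (Egr1), 0 at 4 h, 1 at 8 h and 0 for the response at 1 h. The causes were not tested. The joint value of Nr4a3, taken at 1 h on counts, was -0.44 on log2(TPM + 1), with and without the filter, as its largest difference then fell at 8 h. Leaving out libraries gave 0 to 1 calls between the siRNA groups at 4 h and 2 to 4 at 8 h, and 0 for the response at 1 h. Of 3528 recomputed member values, 3408 kept their side of the threshold, and 55 of these changed sign while called in neither fit. For the changes with IL-1β, upper-quartile scaling moved the median of all genes by up to -0.14 and log2(TPM + 0.1) by up to -0.25, and no called change of a member with IL-1β reversed. Nr4a3 (2.25 to 3.97 CPM at 0 h, 64 to 94 counts) is the member that depth limits most.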
